A study of Homo sapiens with 48 samples.

Results

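The question here was whether the response of human fibroblasts to loss of the splicing factor RBM39 depended on oncogenic RAS. The comparison used the 32 of 48 RNA sequencing libraries that received non-targeting siRNA (siNT) or siRNA against RBM39 (siRBM39), chosen by their titles, and measured the interaction, that is, the siRBM39 against siNT change in cells with active RAS minus the same change in cells without it. All libraries came from IMR90 lung fibroblasts carrying ER:RAS G12V, a fusion of oncogenic HRAS to the hormone-binding part of the oestrogen receptor that is active only when 4-hydroxytamoxifen (4OHT) is present. Cells were given 4OHT or its solvent DMSO for 6 days in complete medium, were then transfected, and were kept for 2 more days in medium with 0.5% FBS. In each of the DMSO and 4OHT arms, siNT1, siNT2, siRBM39-06 and siRBM39-08 were used with 4 replicates each, giving 8 libraries per arm and target, and the controls carried the same fusion as the knockdown cells. Because 4OHT and solvent were compared within a single cell line with no line lacking the fusion, the effects of RAS and of 4OHT itself cannot be told apart.

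RBM39 is an RNA-binding protein related to the large subunit of U2AF, the factor that recognises the polypyrimidine tract upstream of a 3′ splice site, and it also binds transcription factors as a coactivator. Oncogenic RAS drives the kinase cascade that ends in ERK, and sustained RAS signalling in fibroblasts ends in senescence, a lasting arrest in which cells secrete interleukins, chemokines and proteases, collectively the senescence-associated secretory phenotype. Much of that secretion is driven by the transcription factors NF-kB and C/EBP and is amplified by interleukin 1 acting back on the same cells.

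The 32 libraries held 32346632 to 48566557 counts each. Replicate 4 of siRBM39-08 in 4OHT stood apart from its 3 partners, with a median absolute log2 deviation of 0.555 per gene where the next highest library of its group had 0.244. Its mitochondrial share of counts was 2.46%, against 5.30% to 7.67% in the other siRBM39 libraries in 4OHT, and cytosolic ribosomal protein genes took 3.90% of its counts, against 2.03% to 2.37%. The results below were therefore computed with and without it. The siRBM39-06 libraries in DMSO also differed among themselves, with deviations of 0.107 to 0.214. Ribosomal protein genes took 3.59% and 3.48% of counts in their replicates 1 and 3, and 2.75% and 2.685% in replicates 2 and 4. These libraries were kept in the main tests. All 10 fibroblast markers examined averaged above 1 cRPKM (a read density per mappable length and library size), whereas 2 of 7 epithelial, 1 of 5 endothelial and 1 of 8 leukocyte markers did. The summed epithelial level was 2.57 to 4.49 cRPKM with siNT and 2.71 to 35.97 cRPKM with siRBM39 in 4OHT, and 5.73 to 8.45 and 5.28 to 14.9 cRPKM in DMSO. The leukocyte sum was 45.6 to 66.7 cRPKM in 4OHT and 21.7 to 30.4 cRPKM in DMSO, and the part of either in the results was not tested. In these bulk samples, fewer cells of a type and less RNA per cell cannot be told apart, and p-values measure the spread between these libraries. The study's methods call the replicates of its cell culture work independent experiments, and the labels of these libraries give only a replicate number.

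RBM39 mRNA was depleted in both arms. With siNT it lay at 158 to 185 CPM (counts scaled to library size, with TMM factors; median 172) in DMSO and 115 to 127 CPM (median 120) in 4OHT, and with siRBM39 it lay at 24.2 to 31 CPM (median 27.4) and 13.7 to 18.4 CPM (median 16.6). No siRBM39 library overlapped a siNT library in either arm. The log2 knockdown change was −2.64 in DMSO and −2.89 in 4OHT, and the interaction of −0.25 ± 0.07 (SE, n = 8 libraries per arm and target; adjusted p = 0.0102, edgeR quasi-likelihood test with Benjamini-Hochberg adjustment over all 9991 genes tested) shows a slightly deeper depletion with RAS. The paralogue RBM23, another U2AF-related protein, had an interaction that did not pass (0.10 ± 0.05, adjusted p = 0.213).

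With the siRNAs of each target pooled, 1413 genes had an interaction at an adjusted p below 0.05 (14.1% of those tested), of which 727 were higher (7.28%) and 686 lower (6.87%) with RAS. Here "higher" means that the siRBM39 change in 4OHT lay above the change in DMSO on the log2 scale, whichever direction the gene moved in either arm. When replicate 4 of siRBM39-08 in 4OHT was left out, the count was 2499 (25%), with 1309 higher (13.1%) and 1190 lower (11.9%). When the model held only the 32 libraries, it called 1436 genes, of which 578 were higher and 858 lower, so that the share of higher calls was 40.3% in place of 51.5%. The siRNAs were tested singly in another model, with a group per siRNA. It gave 3076 calls for siRBM39-06 (30.8%) and 3123 for siRBM39-08 (31.3%), and 2777 for both pooled. Without replicate 4 the counts for the single siRNAs were 5133 (51.4%) and 3101 (31%), the latter with 1582 higher (15.8%) and 1519 lower (15.2%).

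An interaction was attributed to RBM39 loss only where both siRNAs gave it with the same sign, with all libraries and without replicate 4. This held for 1072 genes (10.7%), with 545 higher (5.45%) and 527 lower (5.27%). With only the 32 libraries in the model it held for 833 genes, of which 334 were higher and 499 lower, so that 40.1% were higher in place of 50.8%. Most of the 1072 were small. The smaller of the 2 siRNA estimates had a median size of 0.31 on the log2 scale, 205 genes reached 0.5 with each siRNA, and 27 reached 1, of which 8 were higher and 19 lower. Both siRNAs were compared with the same siNT libraries, so the test was repeated with controls that were not shared. With all libraries, and siRBM39-06 against siNT1 and siRBM39-08 against siNT2, 880 genes were called by each and 788 of them had the same sign. With the controls exchanged the counts were 862 and 817. Shared controls gave 1146 genes of the same sign with all libraries. When a pass without replicate 4 was also required, as for the 1072, the unshared controls gave 745 and 782 genes. Over all 9991 genes the siRNAs' interactions correlated weakly in this disjoint comparison (Pearson's r = 0.0997 and 0.256, a description across genes, which are not independent), and r rose to 0.523 and 0.654 without replicate 4.

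The interaction was a modest departure from a shared knockdown response. In DMSO 4605 genes changed with siRBM39 (46.1%) and in 4OHT 5639 did (56.4%). These comparisons share no library, and the log2 changes correlated across genes with r = 0.768 (0.743 without replicate 4). Of the 545 higher genes, 225 changed only in 4OHT, 98 only in DMSO, 109 changed the same way in both arms with the larger change in 4OHT, 30 with the smaller change in 4OHT, 70 changed in opposite directions and 13 passed in neither arm. Of the 527 lower genes the corresponding numbers were 160, 87, 173, 32, 61 and 14. Passing in 4OHT only was the commonest pattern among the higher genes, and a larger change of the same sign the commonest among the lower genes. Genes were counted as changed in an arm where they passed the test, and not passing does not show that a gene was unchanged. Without replicate 4, 193 higher and 140 lower genes passed in 4OHT only, and the opposite-direction counts were 92 and 64.

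**Figure D1:**
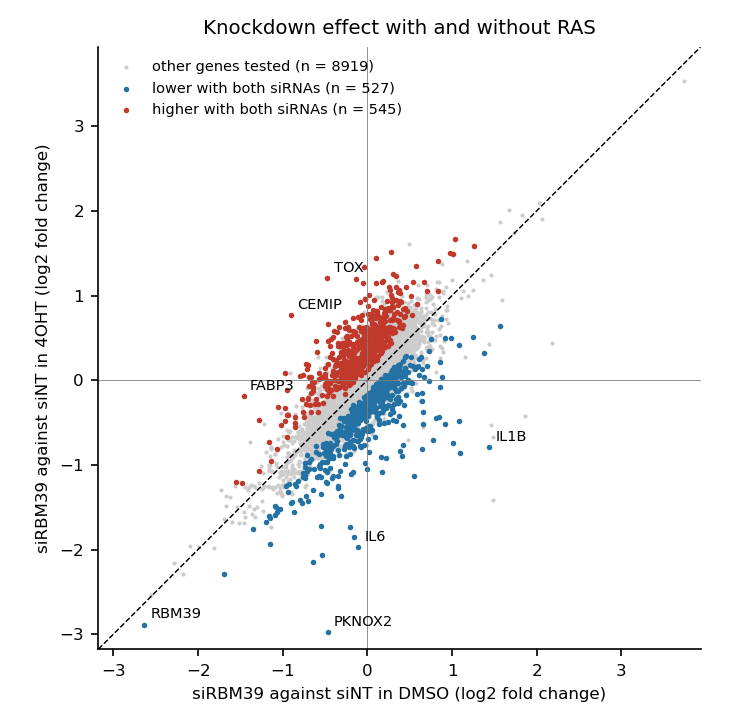
Log2 change of each tested gene with siRBM39 against siNT in DMSO (x axis) and in 4OHT (y axis), with genes whose interaction passed with both siRNAs in red (545 higher) and blue (527 lower), the other genes in grey and the line of equal change dashed. Most genes lie along the line, PKNOX2 and IL6 fall far below it through a change seen mainly in 4OHT, and IL1B lies below it with changes of opposite sign.

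Several secreted inflammatory mediators had a lower interaction. Of 37 cytokines and chemokines listed for the secretory phenotype, 26 had enough counts to test, and 10 of these were lower and 3 higher with both siRNAs, beside 5.27% and 5.45% of all genes tested. The median interaction over the 26 was −0.60 on the log2 scale, and it was 0.02 over all genes. The 11 that were not tested had fewer than 10000 counts over all libraries. Fitted values of members with few counts in DMSO depend on the prior count of the model, and the counts describe these members and are not a test of the list.

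IL6, the interleukin that signals through gp130 and a core secretory factor, had 1.07 to 1.69 CPM with siNT in DMSO (median 1.32) and 0.797 to 1.65 CPM with siRBM39 (median 1.21). In 4OHT it had 102 to 140 CPM with siNT (median 115) and 19.95 to 44.9 CPM with siRBM39 (median 24.8). The groups overlapped in DMSO and were fully apart in 4OHT, where replicate 4 (25.7 CPM) lay below the other siRBM39-08 libraries. Knockdown changed it by −0.11 on the log2 scale without RAS (adjusted p = 0.690) and by −1.97 with it, and the interaction was −1.86 ± 0.25 (SE, n = 8; edgeR adjusted p = 4.08e-07), with −2.09 for siRBM39-06 and −1.68 for siRBM39-08.

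IL8 (CXCL8), the neutrophil chemokine, had 0.596 to 1.15 CPM with siNT in DMSO (median 1.01) and 0.886 to 1.96 CPM with siRBM39 (median 1.31). In 4OHT it had 2508 to 3709 CPM with siNT (median 3175) and 881 to 2083 CPM with siRBM39 (median 1247). The knockdown groups overlapped in DMSO, with 24 to 84 counts a library, and did not overlap in 4OHT. The change was 0.55 in DMSO and −1.13 in 4OHT, and the interaction was −1.68 ± 0.25 (SE, n = 8; edgeR adjusted p = 2.40e-06). Put the other way, 4OHT raised IL8 by 11.70 on the log2 scale with siNT and by 10.02 with siRBM39, so most of the induction was still measured after knockdown.

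IL1B, the interleukin 1 cytokine that sits upstream of much of this secretion, had only 4 to 19 counts a library with siNT and 21 to 52 with siRBM39 in DMSO, or 0.109 to 0.491 CPM (median 0.296) and 0.490 to 1.13 CPM (median 0.700). In 4OHT it reached 2886 to 3494 CPM with siNT (median 3165) and 1479 to 2374 CPM with siRBM39 (median 1622). The DMSO groups touched at their edges and the 4OHT groups did not overlap. The change was 1.44 in DMSO and −0.79 in 4OHT, both past the test, and the interaction of −2.23 ± 0.29 (SE, n = 8; edgeR adjusted p = 1.36e-07) therefore combined a rise at a very low level with a fall at a very high level. The siRNAs differed in size, −2.83 for siRBM39-06 and −1.58 for siRBM39-08.

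CXCL2, another neutrophil chemokine, was at 0 to 3 counts with siNT and 1 to 5 counts with siRBM39 in DMSO, with 3 siNT libraries at 0, so no fold change in DMSO and no size of interaction is given for it. In 4OHT it fell from 10.2 to 17.1 CPM (median 12.6) to 5.21 to 8.62 CPM (median 7.50), a log2 change of −0.86 (edgeR adjusted p = 1.19e-07). The remaining lower members of the 10 were LIF, a relative of IL6 (−0.74 ± 0.11), TNFAIP3, a deubiquitinase that restrains NF-kB (−0.77 ± 0.13), and, named after their values were seen to complete the set, CXCL3 (−1.46), the monocyte chemokine CCL2 (−1.26), CXCL1 (−1.26) and the activin subunit INHBA (−0.65). All 6 passed with both siRNAs, CXCL3 with few counts in DMSO, where its change did not pass. For CCL2 the estimates were −1.64 with siRBM39-06 and −0.90 with siRBM39-08.

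The 3 higher members were CXCL12, IL1R1 and TNFAIP6. CXCL12, a chemokine made constitutively by fibroblasts, was at 12.7 to 17.1 CPM with siNT in DMSO and at 0.0447 to 0.216 CPM in 4OHT, only 2 to 7 counts a library, so its interaction of 1.33 ± 0.31 (SE, n = 8; edgeR adjusted p = 0.00208) rests on few reads. The interleukin 1 receptor IL1R1 was at 126 to 152 CPM with siNT and 110 to 155 CPM with siRBM39 in DMSO, and at 82.4 to 97.5 and 81.9 to 165 CPM in 4OHT, with an interaction of 0.57 ± 0.13. In 4OHT its siRBM39 libraries lay above all siNT libraries apart from replicate 4, which was the lowest at 81.9 CPM, and without it the interaction was 0.65. TNFAIP6, a hyaluronan-binding protein with anti-inflammatory activity, had an interaction of 0.65 ± 0.16 and the same exception, with replicate 4 at 4.78 CPM below the range of 8.76 to 10.4 CPM of the other siRBM39 libraries.

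CXCL10, an interferon-inducible T-cell chemokine that was not on that list, ranked among the 10 lower genes with the largest interaction in both siRNAs. Its level was 0.936 to 1.91 CPM with siNT (median 1.23) and 1.83 to 3.28 CPM with siRBM39 (median 2.60) in DMSO, and 28.6 to 34.4 CPM (median 30.9) and 14.8 to 23.6 CPM (median 17.3) in 4OHT. The groups overlapped narrowly in DMSO and not in 4OHT. The change turned from 1.02 in DMSO to −0.74 in 4OHT, an interaction of −1.76 ± 0.18 (SE, n = 8; edgeR adjusted p = 3.28e-10).

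**Figure D2:**
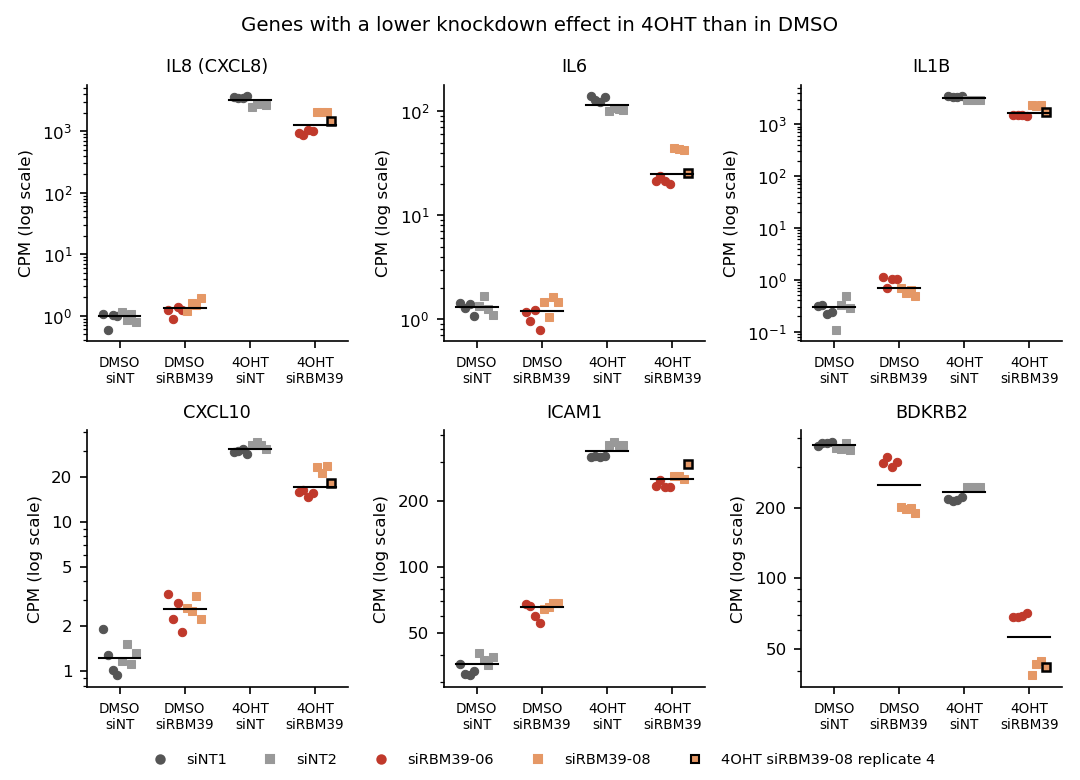
Level of 6 genes in each of the 32 libraries, in CPM on a log axis, by arm and target, with the siRNA given by colour and shape, replicate 4 of siRBM39-08 in 4OHT outlined and the group median as a bar. In 4OHT every siRBM39 library lies below every siNT library for all 6 genes, whereas in DMSO IL8, IL6, IL1B and CXCL10 overlap between targets, ICAM1 is higher and BDKRB2 lower with siRBM39.

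NF-kB subunits and feedback genes moved the same way where they moved. Of 16 tested, 5 were lower and none higher with both siRNAs, where 5.27% and 5.45% of all genes were. The pooled test gave 7 lower and 0 higher, beside 6.87% and 7.28% of all genes, and 10 and 0 without replicate 4, beside 11.9% and 13.1%. ICAM1, an adhesion molecule for leukocytes, had 32.2 to 40.8 CPM with siNT (median 36.1) and 55.7 to 68.6 CPM with siRBM39 (median 66.1) in DMSO, and 318 to 372 CPM (median 340) and 231 to 295 CPM (median 252) in 4OHT. Its groups did not overlap in either arm and moved in opposite directions, by 0.84 in DMSO and −0.44 in 4OHT, with an interaction of −1.28 ± 0.15 (SE, n = 8; edgeR adjusted p = 9.79e-09). BIRC3, an inhibitor of apoptosis protein that is both a target and a component of the pathway, had an interaction of −1.07 ± 0.23, having fallen from 24.2 to 35.4 CPM to 7.44 to 22.7 CPM in 4OHT with no overlap, while its DMSO change of 0.16 did not pass. TNIP1, a partner of TNFAIP3 (−0.49 ± 0.11), and the subunit gene NFKB1 (−0.31 ± 0.09) were the others with TNFAIP3. For TNIP1, replicate 4 was at 646 CPM where the other siRBM39 libraries in 4OHT were at 377 to 422 CPM, and the interaction without it was −0.60.

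Promoter sequence was examined because several of these genes are known NF-kB targets. RefSeq promoters on GRCh38.p14 were matched for 21 of the 26 tested secretory genes, and the 250 bases before the start held a match to the NF-kB consensus on either strand in 10 of them (47.6%), against 954 of 8208 promoters of all genes tested (11.6%) 59 of 423 of the lower genes (13.9%) and 59 of 417 of the higher genes (14.1%). The AP-1 motif TGANTCA was present in 4 of the 21 (19%), in 299 of the 8208 (3.64%), in 20 of the 423 (4.73%) and in 19 of the 417 (4.56%). The NF-kB consensus searched was GGGRNNYYCC, where R is A or G, Y is C or T and N is any base. The windows of IL8, IL1B and ICAM1 held no match to it. Those of IL8 and ICAM1 held tggaatttcc and tggaaattcc, which differ from it only in the first letter, so no match does not mean no site. A match is a description of letters and not evidence of binding. The secretory list holds called and uncalled members of a programme known to be driven by NF-kB, so its share says nothing about RBM39. The promoters of 3 lower genes with matches are shown 5′ to 3′ on the gene's strand, with the NF-kB matches in capitals, for CXCL2 (chr4:74099196-74099445, minus strand, where matches on the opposite strands overlap), IL6 (chr7:22726950-22727199, plus strand) and CXCL10 (chr4:76023498-76023747, minus strand).
CXCL2: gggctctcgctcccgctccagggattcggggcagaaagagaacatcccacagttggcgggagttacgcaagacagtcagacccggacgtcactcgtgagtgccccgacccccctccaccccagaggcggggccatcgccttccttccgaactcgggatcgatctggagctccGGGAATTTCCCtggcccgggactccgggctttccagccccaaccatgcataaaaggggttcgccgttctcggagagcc
IL6: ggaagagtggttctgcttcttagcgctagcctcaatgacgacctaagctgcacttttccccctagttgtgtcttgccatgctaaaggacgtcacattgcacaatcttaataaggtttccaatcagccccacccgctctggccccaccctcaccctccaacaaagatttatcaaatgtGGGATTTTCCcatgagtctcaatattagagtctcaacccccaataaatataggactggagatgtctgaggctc
CXCL10: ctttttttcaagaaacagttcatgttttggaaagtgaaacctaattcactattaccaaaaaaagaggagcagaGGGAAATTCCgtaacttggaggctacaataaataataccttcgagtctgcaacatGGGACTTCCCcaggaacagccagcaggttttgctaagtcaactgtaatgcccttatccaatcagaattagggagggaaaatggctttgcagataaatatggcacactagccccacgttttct

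Outside the inflammatory genes, the lower set was led by PKNOX2, a TALE-family homeobox transcription factor. It had 13.9 to 16.9 CPM with siNT (median 15.8) and 10.3 to 12.2 CPM with siRBM39 (median 11.4) in DMSO, and 6.85 to 8.25 CPM (median 7.37) and 0.811 to 1.08 CPM (median 0.951) in 4OHT. The groups were apart in both arms and the siRNAs gave nearly the same value, −2.51 and −2.49. The log2 change was −0.47 in DMSO and −2.98 in 4OHT, and the interaction of −2.51 ± 0.12 (SE, n = 8; edgeR adjusted p = 1.14e-21) was the largest of the lower genes by the ranking used.

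OSBPL5, an oxysterol-binding protein that carries lipid between membranes, fell from 29.4 to 34.4 CPM to 7.77 to 12.1 CPM in 4OHT while overlapping in DMSO (49.2 to 58.4 CPM with siNT and 40.005 to 58.0 CPM with siRBM39), with an interaction of −1.53 ± 0.09. BDKRB2, the constitutive bradykinin receptor, fell in both arms, from 354 to 384 CPM to 191 to 331 CPM in DMSO and from 215 to 247 CPM to 38.4 to 71.2 CPM in 4OHT, with an interaction of −1.53 ± 0.16. Within siRBM39 its siRBM39-08 libraries lay below all siRBM39-06 libraries in both arms, yet the interactions were alike at −1.51 and −1.57. KLHL29, a kelch-repeat protein, and ADAMTS14, a metalloprotease that trims procollagen, had interactions of −1.50 ± 0.11 and −1.69 ± 0.16. In 4OHT, ADAMTS14 fell from 19.1 to 23.2 CPM to 5.74 to 6.81 CPM, which was close to its level in DMSO with siRBM39 (3.98 to 6.64 CPM), and KLHL29 fell from 33.8 to 39.1 CPM to 5.77 to 8.91 CPM.

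The 10 leading genes whose knockdown effect was higher with RAS had all been lowered by 4OHT in siNT cells. The same siNT libraries enter the interaction and this 4OHT effect, so they are not independent. TOX, an HMG-box nuclear factor, was at 50.9 to 56.9 CPM with siNT (median 55.3) and 26.1 to 46.6 CPM with siRBM39 (median 40.1) in DMSO, without overlap. In 4OHT it had 0.0616 to 0.194 CPM and 0.167 to 0.385 CPM, from 2 to 9 and 6 to 17 counts a library, and these groups overlapped. Its change turned from −0.47 to 1.21, with an interaction of 1.68 ± 0.29 (SE, n = 8; edgeR adjusted p = 3.06e-05) whose 4OHT side rests on those few reads.

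KIAA1199 (CEMIP), a hyaluronan-degrading protein, reversed direction. It fell in DMSO from 76.8 to 105 CPM (median 91.8) to 43.5 to 60.2 CPM (median 47.6) and rose in 4OHT from 11.2 to 13.5 CPM (median 12) to 16.0 to 26.9 CPM (median 19.9). The groups did not overlap in either arm, and replicate 4 was the lowest siRBM39 library in 4OHT. The changes were −0.90 and 0.77, and the interaction was 1.66 ± 0.18 (SE, n = 8; edgeR adjusted p = 1.79e-09), with 1.42 for siRBM39-06 and 1.89 for siRBM39-08.

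MTUS1, a microtubule-associated growth suppressor, and OLFML3, a secreted olfactomedin-family protein, did not pass in DMSO (log2 changes of −0.05 and −0.03, adjusted p = 0.677 and 0.730 by edgeR) and rose in 4OHT. MTUS1 went from 3.2 to 4.19 CPM to 7.2 to 9.63 CPM in 4OHT, against 47.7 to 52.1 and 41.9 to 56.0 CPM in DMSO, and its interaction was 1.19 ± 0.13. OLFML3 went from 13.1 to 15.1 CPM to 24.9 to 29.6 CPM, against 149 to 170 and 146 to 173 CPM in DMSO, and its interaction was 0.99 ± 0.08. Both thus remained far below their DMSO level after knockdown.

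NUPR1, a stress-induced chromatin-associated protein, rose in 4OHT from 3.64 to 4.66 CPM to 7.47 to 18.4 CPM, with an interaction of 1.34 ± 0.17. Replicate 4 had its highest value, 18.4 CPM, and the siRBM39-08 estimate was 1.13 with that library and 0.70 without it, against 1.52 for siRBM39-06. FABP3, a fatty-acid-binding protein, differed in that its effect lay in DMSO, where it fell from 14.8 to 26 CPM to 5.38 to 8.99 CPM. In 4OHT it was at 2.34 to 3.68 CPM with siNT and 2.12 to 3.61 CPM with siRBM39, which overlapped, and the interaction was 1.27 ± 0.20. FST, the secreted activin antagonist follistatin, reversed from −0.39 in DMSO to 0.58 in 4OHT (interaction 0.96 ± 0.13), which stands beside the lower value of the activin subunit INHBA. KIAA175, whose identifier belongs to KIAA1755, also reversed, from −0.46 to 0.66 (interaction 1.13 ± 0.12), and the receptor tyrosine kinase-like ROR2 completed the 10 with 1.01 ± 0.25 at 7 to 50 counts a library in 4OHT.

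**Figure D3:**
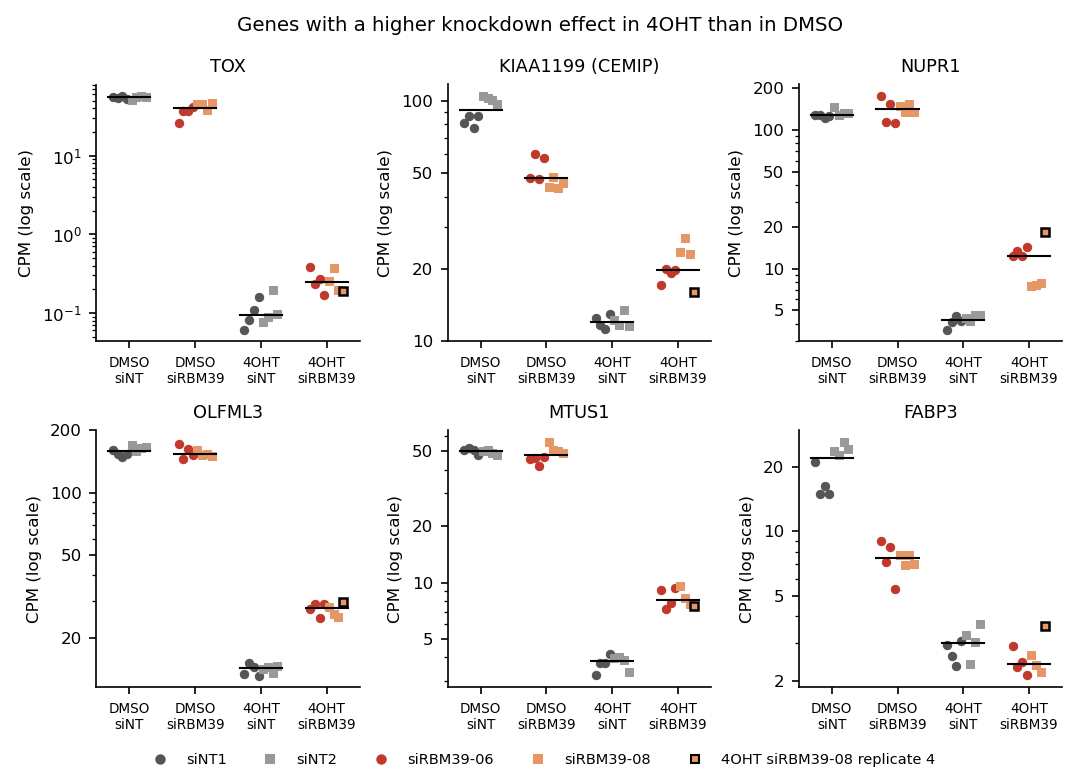
Level of 6 genes in each of the 32 libraries, in CPM on a log axis, drawn as for the lower genes. MTUS1, OLFML3 and NUPR1 overlap between targets in DMSO and rise with siRBM39 in 4OHT, KIAA1199 (CEMIP) moves in opposite directions, the 4OHT values of TOX lie below 0.385 CPM, and FABP3 separates by target only in DMSO.

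Read as the response to 4OHT, these genes follow a direction. The RAS effect was taken from siNT1 and the interaction from siRBM39 against siNT2, without replicate 4, so that no library was shared. Of 759 genes induced at least 2-fold by 4OHT, 337 had a lower and 78 a higher interaction, where 17.8% and 18.6% of all genes did in that comparison. Of 1086 genes repressed at least 2-fold, 65 were lower and 528 higher. With the controls exchanged the counts were 336 lower and 88 higher of 775 induced genes, and 81 lower and 519 higher of 1083 repressed genes (17.8% and 20.9% of all genes). At the median, both the induced and the repressed genes thus changed less with 4OHT after RBM39 knockdown. Their median interactions were −0.17 and 0.22 on the log2 scale in the first split and −0.16 and 0.22 in the second. Genes with few counts in DMSO or in 4OHT could pass the count filter through the other arm. Fitted values of such genes depend on the prior count of the model, and their part in these counts was not tested.

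The direct output of ERK was called in both directions. Of 32 tested ERK output and feedback genes, 2 were higher and 3 lower with both siRNAs, where 5.45% and 5.27% of all genes were. The phosphatase gene DUSP6, which feeds back on ERK, was at 53 to 56.9 CPM with siNT and 56.9 to 69.9 CPM with siRBM39 in DMSO, and at 493 to 538 and 329 to 519 CPM in 4OHT, with an interaction of −0.32 ± 0.07. Its lowest value, 329 CPM, was replicate 4, and the other siRBM39 libraries in 4OHT were at 467 to 519 CPM. Without it the siRBM39-08 estimate went from −0.30 to −0.18, and the fall of DUSP6 in 4OHT went from −0.13 to −0.07 and no longer passed (edgeR adjusted p = 0.0869). The receptor kinase gene EPHA2 (−0.36 ± 0.10) and LIF were the other lower members. PHLDA1 (0.37 ± 0.05) and the immediate-early transcription factor EGR3 (0.63 ± 0.16) were higher, having changed by −0.47 and −0.69 in DMSO and by −0.10 and −0.06 in 4OHT, where EGR3 did not pass. Among 11 AP-1 and C/EBP genes, only the small MAF protein gene MAFF passed with both siRNAs (−0.51 ± 0.09), and it was lower.

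Matrix remodelling genes were called in both directions. Of 23 proteases and inhibitors, 4 were higher and 4 lower with both siRNAs, beside 5.45% and 5.27% of all genes. SERPINB2, the plasminogen activator inhibitor that RAS strongly induces, fell in 4OHT from 474 to 589 CPM (median 524) to 247 to 312 CPM (median 277) while its DMSO level was 1.71 to 2.70 and 2.30 to 3.40 CPM. These groups overlapped in DMSO and not in 4OHT, and the interaction was −1.31 ± 0.14 (SE, n = 8; edgeR adjusted p = 1.43e-09). The stromelysin MMP3 (−0.49 ± 0.12) was also lower, and MMP11 passed with each siRNA but not in the pooled test (−0.59 ± 0.29, adjusted p = 0.180). The higher genes were the tissue inhibitor TIMP3 (0.72 ± 0.20), MMP19 (0.53 ± 0.08), the cathepsin CTSK (0.43 ± 0.11) and the gelatinase MMP2 (0.34 ± 0.07).

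Of 39 fibrillar matrix and basement membrane genes, 5 were higher and 3 lower with both siRNAs, beside 5.45% and 5.27% of all genes. FBLN1, a matrix glycoprotein (0.50 ± 0.09), and the interstitial collagen genes COL3A1 (0.43 ± 0.09) and COL1A2 (0.43 ± 0.10) fell in DMSO. With the siRNAs pooled they rose in 4OHT, by 0.19, 0.19 and 0.15 on the log2 scale. Without replicate 4 the rise no longer passed for FBLN1 (0.13, edgeR adjusted p = 0.0735) and COL1A2 (0.13, adjusted p = 0.0880). With siRBM39-06 none of the 3 passed in 4OHT (0.06 for FBLN1, 0.01 for COL3A1 and −0.09 for COL1A2, edgeR adjusted p = 0.319, 0.910 and 0.0587), and its changes in DMSO were −0.30, −0.26 and −0.43. COL1A2 was at 13102 to 14861 CPM and 9860 to 12989 CPM in DMSO, and at 1206 to 1438 CPM and 1146 to 1859 CPM in 4OHT, where the targets overlapped. COL5A1 moved the opposite way, up in DMSO (0.18) and down in 4OHT (−0.21), and COL8A1 (−0.47 ± 0.13) and THBS2 (−0.40 ± 0.13) were lower as well. POSTN, although higher with each siRNA, did not pass in the pooled test (0.49 ± 0.30, adjusted p = 0.306). Of 28 contractile and SRF or YAP target genes, 4 were higher, with ACTG2 the first (0.74 ± 0.13), and 2 were lower, CYR61 (CCN1, −0.64 ± 0.10) and the tropomyosin gene TPM1 (−0.51 ± 0.11).

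Arrest genes were called in both directions. Of 33 cell-cycle inhibitors and other arrest genes, 4 were lower and 1 higher with both siRNAs, where 5.27% and 5.45% of all genes were. The pooled test gave 4 lower and 2 higher, beside 6.87% and 7.28% of all genes. Without replicate 4 it gave 4 lower and 3 higher, beside 11.9% and 13.1%. PMAIP1, the BH3-only protein NOXA, fell in 4OHT from 158 to 175 CPM to 68.1 to 125 CPM, with no overlap, and not detectably in DMSO (46.9 to 60.2 and 32.1 to 59.8 CPM), with an interaction of −0.54 ± 0.12. PLK3 (−0.41 ± 0.09) was lower too, BTG2 was lower with each siRNA but not in the pool (−0.36 ± 0.21, adjusted p = 0.275), and the antiproliferative BTG1 was higher (0.65 ± 0.11). PMAIP1, which is also among the 33, and BIRC3 were the only members of 29 BCL2 family and caspase genes to pass with both siRNAs. Of all genes, 10.7% did. In the pooled test 5 of the 29 were lower and 1 higher, beside 6.87% and 7.28% of all genes. Without replicate 4 the counts were 7 lower and 2 higher, beside 11.9% and 13.1%. Of 23 mitotic genes, FOXM1, the transcription factor of that programme (0.77 ± 0.12), and PRC1 (0.54 ± 0.22, not passed in the pool) were higher. Of 28 replication genes MCM2 was higher (0.43 ± 0.09) and ORC6L lower (−0.50 ± 0.11). Beside both lists stand the 5.45% higher and 5.27% lower of all genes. FOXM1 was at 3.64 to 5.22 CPM and 4.92 to 9.28 CPM in 4OHT, where the highest value was replicate 4.

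Ribosomal protein and cholesterol synthesis genes gave no call. None of 75 cytosolic ribosomal protein genes and none of 26 cholesterol synthesis genes passed in the pooled edgeR test. This held with and without replicate 4, where 14.1% and 25% of all genes passed. At an unadjusted p below 0.05 there were 4 higher ribosomal protein genes and 1 higher cholesterol synthesis gene. Without replicate 4 there were 1 higher ribosomal protein gene and 1 lower cholesterol synthesis gene. The share of all genes at that threshold is not given here. Of 60 respiratory chain subunit genes only UQCRC2 passed with both siRNAs (−0.35 ± 0.06), beside 10.7% of all genes. Without replicate 4 the pooled test gave 7 lower, where 11.9% of all genes were lower. Of 21 interferon-stimulated genes, GBP2 was the single one called with both siRNAs (0.78 ± 0.19), beside the same 10.7% of all genes. Of 36 ER stress and ATF4 genes, 3 were higher and 2 lower with both siRNAs, beside 5.45% and 5.27% of all genes, and 2 were higher and 2 lower in the pooled test. DDIT3, the transcription factor CHOP (0.67 ± 0.19), and ATF4 (0.36 ± 0.11) were higher by both measures. HERPUD1 (0.27 ± 0.10) was higher and the endoplasmic reticulum chaperones HSP90B1 (−0.39 ± 0.16) and PDIA4 (−0.38 ± 0.14) were lower with each siRNA only, with pooled edgeR adjusted p = 0.0761, 0.0873 and 0.0715. The lower genes in the pool, named after their values were seen, were ATF3 (−0.32 ± 0.08) and VLDLR (−0.60 ± 0.17). Replicate 4 had the highest value of DDIT3, 17.5 CPM against 6.97 to 10.1 CPM, and of ATF4, 342 CPM against 182 to 212 CPM. Without it the pooled interaction was 0.48 for DDIT3 and 0.24 for ATF4, and the siRBM39-08 estimate went from 0.74 to 0.33 and from 0.40 to 0.19. Of 22 NRF2 antioxidant genes, FTL, the ferritin light chain (0.47 ± 0.12), and GCLC, an enzyme of glutathione synthesis (0.43 ± 0.10), were higher, beside 5.45% of all genes. Replicate 4 was at 5534 CPM for FTL, where the other siRBM39 libraries in 4OHT were at 3092 to 3733 CPM, and without it the siRBM39-08 estimate for FTL went from 0.43 to 0.20.

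Other splicing factors gave 2 calls with both siRNAs and more in the pool without replicate 4, beside 10.7% and 25% of all genes. RBM39 itself was the only one of 20 tested members of the RBM39 and U2AF group to pass with both siRNAs, and of 22 SR proteins and splicing kinases none did, although 1 was higher and 2 lower in the pooled edgeR test. Without replicate 4 the pooled test gave 3 lower and 0 higher of the 20, and 3 higher and 3 lower of the 22, where 13.1% of all genes were higher and 11.9% lower. Of 26 hnRNP and related regulators, HNRNPH1 (−0.35 ± 0.08) and ELAVL1 (−0.21 ± 0.06) were lower. HNRNPH1 fell in 4OHT from 144 to 156 CPM to 97.8 to 128 CPM and overlapped in DMSO at 182 to 216 and 157 to 211 CPM.

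**Figure D4:**
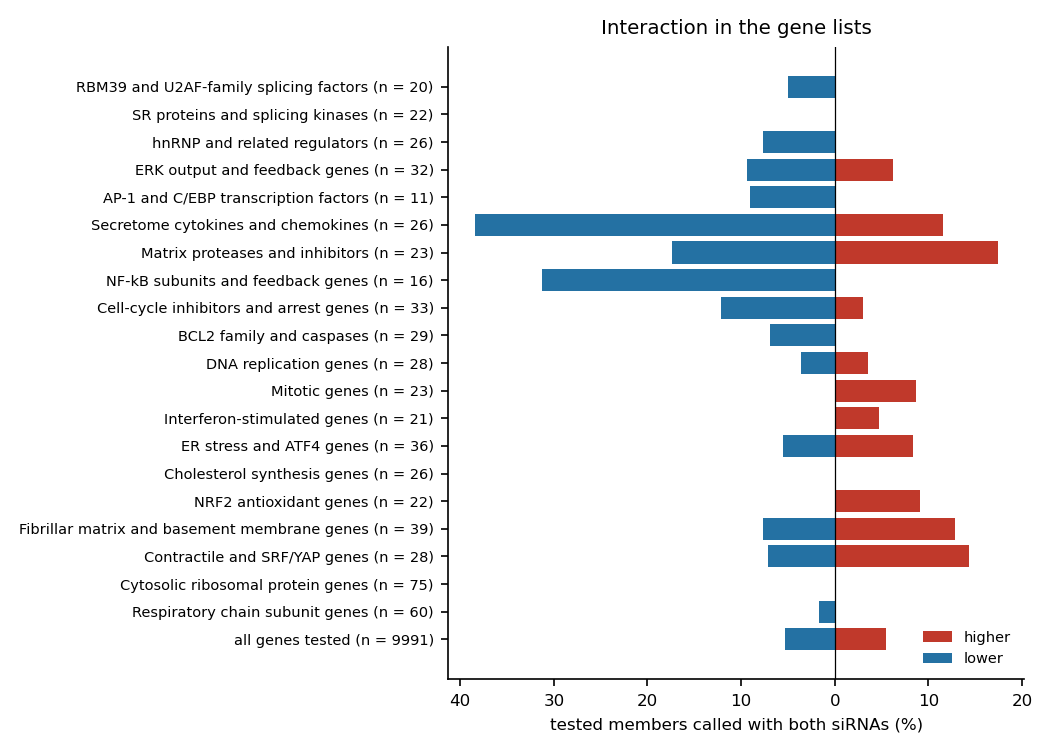
Share of the tested members of each gene list, and of all 9991 genes tested, whose interaction passed with both siRNAs, with lower interactions drawn to the left and higher to the right and the number tested in brackets. The secretory cytokines (10 of 26) and NF-kB genes (5 of 16) reach furthest to the left, and 5.27% and 5.45% of all genes are lower and higher.

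The interaction with RAS was compared with that of SF3B1, the U2 snRNP component knocked down in the other 16 libraries of the series. The direct test of the difference, in which the siNT libraries cancel, passed for 2690 genes (26.9%), 1524 with the higher value for RBM39 (15.3%) and 1166 with the lower (11.7%), and for 3705 without replicate 4. Several inflammatory genes differed. The interaction of IL8 was −1.68 with siRBM39 and 0.69 with siSF3B1 (difference −2.37, edgeR adjusted p = 2.52e-09), that of CXCL10 was −1.76 and 0.58 (difference −2.34), that of ICAM1 was −1.28 and −0.06 (difference −1.22) and that of TNFAIP3 was −0.77 and 0.63 (difference −1.41). For IL6 the values were −1.86 and −1.41, and their difference of −0.45 did not pass (adjusted p = 0.211). BIRC3 had the deeper interaction with siSF3B1, −2.61 against −1.07, and so did PKNOX2, −3.37 against −2.51. Among higher genes, KIAA1199 (CEMIP) and MTUS1 had larger interactions with siSF3B1 (2.91 and 2.69, against 1.66 and 1.19), NUPR1 had the larger with siRBM39 (1.34 against 0.50), and the difference for TOX, 0.10, did not pass.

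Splicing itself gave far fewer called interactions than expression, by tests of unequal power. It was measured as percent spliced in (PSI), the share of transcripts that include an exon or retain an intron, or that use a given splice site. Of 7673 cassette exons that varied and were covered in every library, 3 had an interaction at an adjusted p below 0.05 and at least 5 points of PSI (0.0391%), as did 2 of 547 alternative 3′ splice sites (0.366%), none of 5248 introns and none of 371 alternative 5′ splice sites (limma on logit PSI). Without replicate 4, 1 exon (0.013%) and 2 alternative 3′ sites (0.366%) were called, and introns and 5′ sites again gave none. Unadjusted p fell below 0.05 for 370 exons (4.82%), 29 alternative 3′ sites (5.3%), 232 introns (4.42%) and 17 alternative 5′ sites (4.58%). The knockdown changes themselves were shared by the arms. Across exons the PSI change in DMSO and in 4OHT correlated with r = 0.876, across introns with 0.793 and across alternative 3′ sites with 0.819, from arms with no common library. Of 318 exons changed by at least 10 points in DMSO, 317 moved the same way in 4OHT, with median sizes of 16.4 and 16.9 points. These counts do not show that the arms were alike event by event, since few reads support many single PSI values. In simulated data of 336 exons with a mean PSI of 20% to 80%, 200 were given an interaction of 10 points, and 34% of these were called. The adjustment there ran over 336 exons, most of them changed, and not over 7673. The 34% is therefore not the share that the real test would call. For genes, 78% of simulated interactions of 0.5 on the log2 scale were called.

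All 5 called events lay below 1% or above 99% in at least 1 library, where the logit depends on how extreme PSI values are scaled, and an alternative limited to events from 1% to 99% in every library left them untested. The only event to pass with both siRNAs was a cassette exon of 104 bases in OBFC2A (NABP1), which encodes a single-stranded DNA-binding subunit of the SOSS complex in DNA repair. The exon lies on GRCh37 at chr2:192548016-192548119 on the plus strand, between introns of 1272 and 335 bases. Of 16 annotated transcripts of the gene, 10 join the flanking exons directly and none includes this exon between them. Its length leaves a remainder of 2 on division by 3. Its 3′ splice site (chr2:192547996-192548025) and 5′ splice site (chr2:192548110-192548139) are shown because the knockdown acted on use of this exon, with exon bases in capitals and intron bases in lower case.
OBFC2A 3′ splice site: ctaaatgattatctttgcagATCCACAGTG
OBFC2A 5′ splice site: CCTAAACATGgttcactctcatgttatttt

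In DMSO with siNT the OBFC2A exon had a PSI of 8.99% to 18.3% (median 12.2%, from 55 to 110 reads a library), and with siRBM39 it had 0% to 0.58% (49 to 96 reads). In 4OHT it was already at 0.31% to 1.41% with siNT (median 0.69%, 152 to 252 reads) and was 0% in all 8 siRBM39 libraries. Groups did not overlap in DMSO. The change was −12.9 points in DMSO and −0.76 points in 4OHT, and the interaction was 12.1 points (limma adjusted p = 1.77e-10), 12.1 with each siRNA. In 4OHT, where siNT itself averaged 0.76%, no larger fall was possible. The siSF3B1 interaction was 11 points, with siSF3B1 at 0.79% to 2.98% in DMSO and 0% to 1.60% in 4OHT.

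The 2 alternative 3′ splice sites were in STX4, a plasma membrane SNARE, and STK11, the kinase LKB1. In each, PSI gives use of the upstream acceptor, which adds 22 and 5 bases to the exon. The added bases lie on GRCh37 at chr16:31045525-31045546 and chr19:1226453-1226457, both on the plus strand. Annotated transcripts that use the upstream acceptor numbered 5 of 17 for STX4, where 6 use the downstream one, and 4 of 9 for STK11, where none joins the downstream one with this intron. They are shown in capitals, with the intron to the left and the shared exon to the right in lower case, because both acceptors end in AG.
STX4: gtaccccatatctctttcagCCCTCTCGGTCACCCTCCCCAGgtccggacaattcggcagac
STK11: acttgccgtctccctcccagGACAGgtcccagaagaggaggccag

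STX4 used the upstream acceptor in 0% to 7.04% with siNT (median 2.24%) and 10.3% to 18.9% with siRBM39 (median 12.9%) in DMSO. In 4OHT the values were 3.70% to 12.2% (median 7.98%) and 6.82% to 11.6% (median 9.28%). The targets were apart in DMSO and overlapped in 4OHT, and the interaction was −9.23 points (limma adjusted p = 0.0311, and −9.58 points and 0.0302 without replicate 4). STK11 used it in 94.4% to 97.8% and 96.5% to 100% in DMSO, and in 94.2% to 100% and 85.1% to 97.7% in 4OHT, overlapping in both, with an interaction of −7.16 points (adjusted p = 0.0268). For neither site did the interaction pass with a single siRNA. These values rest on 41 to 120 reads a library for STX4 and 43 to 113 for STK11.

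An exon of C8orf59 was included at 86.3% to 97.3% with siNT and 78.3% to 89.3% with siRBM39 in DMSO, and at 95.1% to 100% and 44.8% to 79.9% in 4OHT, from 29 to 91 reads a library. The skipping with siRBM39 was 20.3 points deeper in 4OHT (limma adjusted p = 0.0235, and 0.0507 without replicate 4), and groups were apart in 4OHT. For an exon of CPSF1, a subunit of the complex that cleaves mRNA for polyadenylation, all siNT libraries were at 100%, and siRBM39 libraries were at 97.9% to 100% in DMSO and 87.2% to 98.9% in 4OHT, an interaction of −5.15 points (adjusted p = 0.0235, and −4.24 points and 0.0507 without replicate 4). The CPSF1 call rested on siRBM39-08 (−7.42 points, limma adjusted p = 0.00623), and the estimate with siRBM39-06 did not pass (−2.88 points, adjusted p = 0.727). For C8orf59 neither siRNA passed alone (−19.02 and −21.7 points, adjusted p = 0.0922 and 0.0965). With siSF3B1 the CPSF1 exon stayed at 100% in both arms.

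Averaged over all 7673 exons, PSI was 83.69% ± 0.02 with siNT and 82.39% ± 0.02 with siRBM39 in DMSO (SD, n = 8), and 83.50% ± 0.05 and 82.01% ± 0.06 in 4OHT. No siRBM39 library overlapped a siNT library. The interaction of this mean was −0.187 points (p = 1e-05, two-sided permutation test with 100000 resamples, the smallest p they can give), and −0.173 without replicate 4. The mean PSI of introns rose from 1.37% ± 0.26 to 2.01% ± 0.14 in DMSO and from 1.21% ± 0.06 to 1.89% ± 0.14 in 4OHT, and its interaction of 0.0440 points did not pass (permutation p = 0.712). Those of alternative 3′ and 5′ sites, 0.147 and −0.229 points, did not pass either (permutation p = 0.227 and 0.166). As a median over exons in place of the mean, the exon interaction was −0.136 points and did not pass (permutation p = 0.188).

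**Figure D5:**
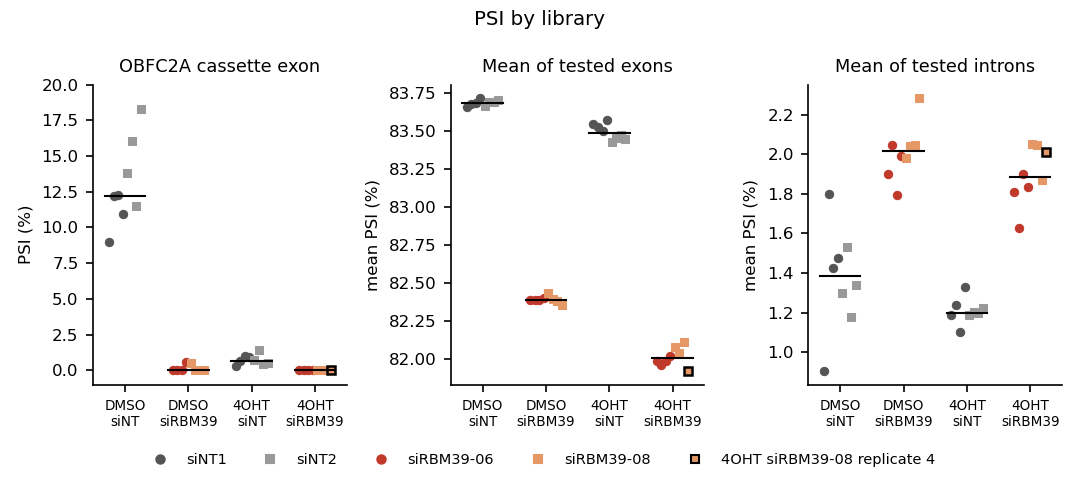
PSI in each of the 32 libraries for the OBFC2A exon, for the mean of 7673 tested exons and for the mean of 5248 tested introns, by arm and target, with bars at the group medians and vertical axes that do not start at 0 for the means. The OBFC2A exon is above 8.99% only with siNT in DMSO, mean exon PSI falls with siRBM39 a little further in 4OHT, and mean intron PSI rises by a similar amount in each arm.

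The study singled out splicing events in SUPT5H and CHD4, a transcription elongation factor and a chromatin remodeller. It reports both as markedly altered by SF3B1 knockdown and as not significantly changed by RBM39 knockdown. The SUPT5H exon was at 0% to 94.4% with siNT and 100% in all siRBM39 libraries in DMSO, and at 55.5% to 90.1% and 84.8% to 100% in 4OHT, but 9 libraries fell below the lowest coverage class accepted here. Its interaction was −7.00 points (permutation p = 0.665). The CHD4 intron was retained at 0.89% to 7.87% and 12.2% to 26.01% in DMSO and at 4.89% to 16.4% and 14.3% to 26.02% in 4OHT, with an interaction of −2.31 points (permutation p = 0.370). For both, siRBM39 libraries lay higher in each arm, overlapping siNT in 4OHT, and no interaction was detectable. Mean CHD4 retention was 4.515% with siNT and 20.7% with siRBM39 in DMSO, and 7.43% and 21.3% in 4OHT. These levels differ from the study's report of no significant change with RBM39 knockdown. The knockdown change of these events within an arm was not tested here.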

How the data were processed

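RNA from IMR90 ER:RAS cells was sequenced after mRNA capture. Per the study's methods, expression and splicing tables come from vast-tools. The gene table deposited by the authors holds read counts and cRPKM, an RPKM per mappable length, the latter used here for cell markers only. The event table deposited by the authors holds PSI in percent with coverage scores and read numbers. Its name gives hg19 while its coordinates lie on GRCh38, so 3 events were placed on GRCh37 by gene and intron lengths. The deposited CPM table was not used.

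Counts of all 48 libraries were tested with edgeR 4.0.16 (R 4.3.3), with TMM scaling and genes of at least 10000 counts in total, in 6 groups, or 12 with siRNAs apart. A gene was called at an adjusted p below 0.05. PSI was tested with limma 3.58.1 on its logit, after scaling the fraction to 0.01 + 0.98 × PSI, in events with at least VLOW coverage in every library, a PSI range of at least 5 points and, for retained introns, junction read balance at p no lower than 0.05. Events were called at an adjusted p below 0.05 and 5 points. Named genes were RBM39 and RBM23, the 10 genes of each sign with the largest smaller estimate of the siRNAs, 3 of each sign that changed in opposite directions, up to 3 per list and sign, the called events and those in SUPT5H and CHD4. Members and lists were chosen with earlier results of these data known. Groups follow the titles, although 4OHT libraries titled siNT2 carry siNT1 in another label. Scripts were tested on simulated data. No replicates were near-identical. Some list members named by this rule are not reported here.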

Additional observations from a re-analysis of the deposited data

Results flagged for a closer look

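Of 148 sets of 8 libraries examined for a value far from the rest, 11 held one, where chance alone gives about 5%. Replicate 4 of siRBM39-08 in 4OHT was the distant library in 6, with 6.81 CPM for ADAMTS14 (nearest 6.15), 5.77 CPM for KLHL29 (nearest 7.95), 41.7 CPM for FST (nearest 28.1), 295 CPM for ICAM1 (nearest 260), 9.28 CPM for FOXM1 (nearest 6.95) and 17.5 CPM for DDIT3 (nearest 10.1). CXCL12 was at 0.476 CPM in replicate 2 of siRBM39-08 in 4OHT (nearest 0.257). In DMSO, NUPR1 was at 146 CPM in replicate 1 of siNT2 (nearest 132), KIAA175 at 30.7 CPM in replicate 1 of siNT1 (nearest 35.7) and the C8orf59 exon at a PSI of 86.3% in replicate 1 of siNT2 (nearest 92.8%). The mean PSI of alternative 3′ splice sites was 58.7% in replicate 4 of siNT1 in 4OHT (nearest 58.4%).

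The interaction with 4OHT differed between siRBM39 and siSF3B1 for 2690 genes by the test of the difference itself, in which the shared siNT libraries cancel.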

How the results depend on the processing

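The pooled count of 1413 genes was 2777 with a group per siRNA, 3076 with siRBM39-06 alone, 3123 with siRBM39-08 alone, 537 with siNT1 alone, 628 with siNT2 alone and 413 with a minimum log2 size of 0.5. Leaving out each library gave 1276 to 2499 genes, and 968 to 2064 with both siRNAs. Both upper values came from leaving out replicate 4 of siRBM39-08 in 4OHT, which also raised the difference from SF3B1 to 3705. DESeq2 called 1642 genes and limma-voom 1379.

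Of the 5 single events, 2 were called at 10 points or more, 1 with siNT1 alone, 2 with siNT2 alone, 2 with no minimum PSI range, 0 with a plain logit, which tested only events from 1% to 99% in every library and so none of these 5, and 3 with siRBM39-08 alone. Leaving out a library gave 1 to 6, with 1 without replicate 3 of siRBM39-08 in 4OHT, 2 without replicate 4 of siNT1 in DMSO and 3 without each of replicates 1 and 2 of siNT1, 3 of siNT2, 4 of siRBM39-06 and 4 of siRBM39-08 in 4OHT, and 1 and 2 of siRBM39-06 and 4 of siRBM39-08 in DMSO. The mean exon interaction was −0.136 points as a median over events, and −0.201 to −0.173 on leaving out each library. The ranges were −0.0175 to 0.111 for introns, 0.102 to 0.212 for alternative 3′ and −0.292 to −0.167 for alternative 5′ sites.

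Same-numbered libraries did not deviate together (median r = 0.0270, above 0.1 in 41 of 112 pairs, and 9 of 32 libraries correlated best with their own number), so the numbers were not taken as pairs. With a replicate block the counts were 1333 pooled, 1072 with both siRNAs, of which 1044 were shared, 2588 for the difference from SF3B1 and 5 events. No value past its threshold changed sign. Among mean PSI interactions that did not pass, the intron value of 0.0440 points turned to −0.0175 without replicate 2 of siNT1 in DMSO, and as medians over events those of introns, alternative 3′ and 5′ sites turned to −0.0713, −0.738 and 1.35 points. Over the alternatives for the 77 named genes, 52 values fell short of the threshold that the main value passed, in 31 genes, and 39 passed it where the main value did not, in 9 genes.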
